A study of Mus musculus with 12 samples.

Results

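Complement was examined through 9 genes chosen by name: the 3 chains of the recognition protein C1q (C1qa, C1qb, C1qc), the central component C3, the alternative pathway proteins factor B (Cfb) and properdin (Cfp), the receptors of the split products C3a and C5a (C3ar1, C5ar1) and the inhibitor Cd59a. A probe set annotated with 1 of these symbols alone was found for 8 of the 9, out of 19938 genes measured, and C3 was not analysed here. Spleens of C57BL/6 mice were profiled on 12 Affymetrix arrays in 3 labelled groups of 4 biological replicates. Septic TLR-deficient mice, whose sample titles name Trif and MyD88, the adaptors through which Toll-like receptors (TLRs) signal, underwent colon ascendens stent peritonitis, in which a stent in the bowel wall lets gut bacteria into the abdomen. Septic wildtype mice had the same operation and are labelled wildtype, and untreated wildtype mice had none, with 0 h in their titles. There is no untreated TLR-deficient group, so genotype and sepsis cannot be told apart between septic TLR-deficient and untreated wildtype mice. The labels state no alleles, age, sex or time after the operation. Expression is given on the log2 scale, and a difference is the first group's mean log2 value minus the second's. The numbers in the titles serve as array names: M5 to M8 are septic TLR-deficient replicates 1 to 4, M9 to M12 septic wildtype replicates 1 to 4 and M13 to M16 untreated wildtype replicates 1 to 4.

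Complement is a cascade of plasma proteins that marks microbes and dying cells for uptake. C1q starts the classical pathway when it binds antibody or damaged surfaces, factor B and properdin build and stabilise the enzyme of the alternative pathway, and both pathways split C3 and then C5 into fragments that call in and activate myeloid cells through C3ar1 and C5ar1. Membrane proteins such as Cd59a keep the terminal membrane attack complex from forming on the body's own cells. Most circulating complement is made in the liver, whereas C1q comes largely from macrophages and dendritic cells, which the spleen holds in number, and properdin from leukocytes.

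The arrays did not sort by label, and this touches every value below. Septic wildtype replicate 2 (M10) correlated with the others across genes at 0.765 to 0.809, against 0.956 to 0.991 among the remaining arrays, its log2 values had an SD of 1.52 against 2.11 to 2.24, and for 5 of the 12 arrays the closest array bore the same label. The Y-linked genes Eif2s3y, Kdm5d and Uty averaged log2 values of 7.16 on M12 and 6.75 to 7.39 on M13 to M15, and 2.74 to 4.02 on the other 8 arrays. By label, most untreated arrays were thus high in these genes and no TLR-deficient array was. Differences from untreated spleens therefore cannot be fully told apart from a difference in Y-linked transcripts, and so perhaps in sex. Because earlier analyses of these values showed M16 to be like M5 to M7, M8 like M9 to M11 and M12 like M13 to M15, values are also given over these 3 blocks of titles. The blocks were set with the values known, so they are described without a test and are not conditions. The labels of M8, M12 and M16 may be wrong, which was not tested, and every mean and difference by label takes them as given. Myd88 had log2 values of 8.62 to 9.64 in septic TLR-deficient spleens, 6.48 to 9.20 in septic wildtype spleens and 8.87 to 9.75 in untreated spleens. Ticam1, which encodes Trif, had 5.80 to 5.93, 5.64 to 6.22 and 5.76 to 6.57 in the same order of groups. Neither gene sets the labelled TLR-deficient arrays apart, although a probe set outside the deleted part of a gene checks nothing. B cell markers were bright in all groups, with Ms4a1 (CD20) at log2 values of 8.55 to 11.03, 8.51 to 10.83 and 9.09 to 10.45, as is usual for spleen. Whole spleens were measured, so fewer cells of a type and less RNA per cell cannot be told apart.

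By label, Cd59a was the member that set a group apart: its 4 septic TLR-deficient values lay above all 8 others. Cfb and C5ar1 had lower means in septic wildtype than in untreated spleens, and no difference of the 3 C1q chains or properdin was as large as that of Cfb between the septic groups. No member passed the test of any comparison. In limma with Benjamini-Hochberg adjustment over all genes, 0 of 8 members and 0 of 19938 genes (0%) had an adjusted p under 0.05 in each of the 3 comparisons. At an unadjusted p under 0.05, 2 of 8 members (Cfb and Cd59a) were higher in septic TLR-deficient than in septic wildtype spleens, where 6.65% of all genes met this p in either direction and 4.42% with a higher and 2.22% with a lower mean. Between septic and untreated wildtype spleens, 2 of 8 (Cfb and C5ar1) were lower, where 8.81% of all genes met this p and 5.92% with a lower and 2.89% with a higher mean; groups lay apart for 0 of 8 members and 6.42% of all genes. Between septic TLR-deficient and untreated wildtype spleens 1 of 8 (Cd59a) was higher, against 1.88% of all genes and 1.17% with a higher and 0.707% with a lower mean. The 3 comparisons share arrays and are not independent of each other.

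**Figure D1:**
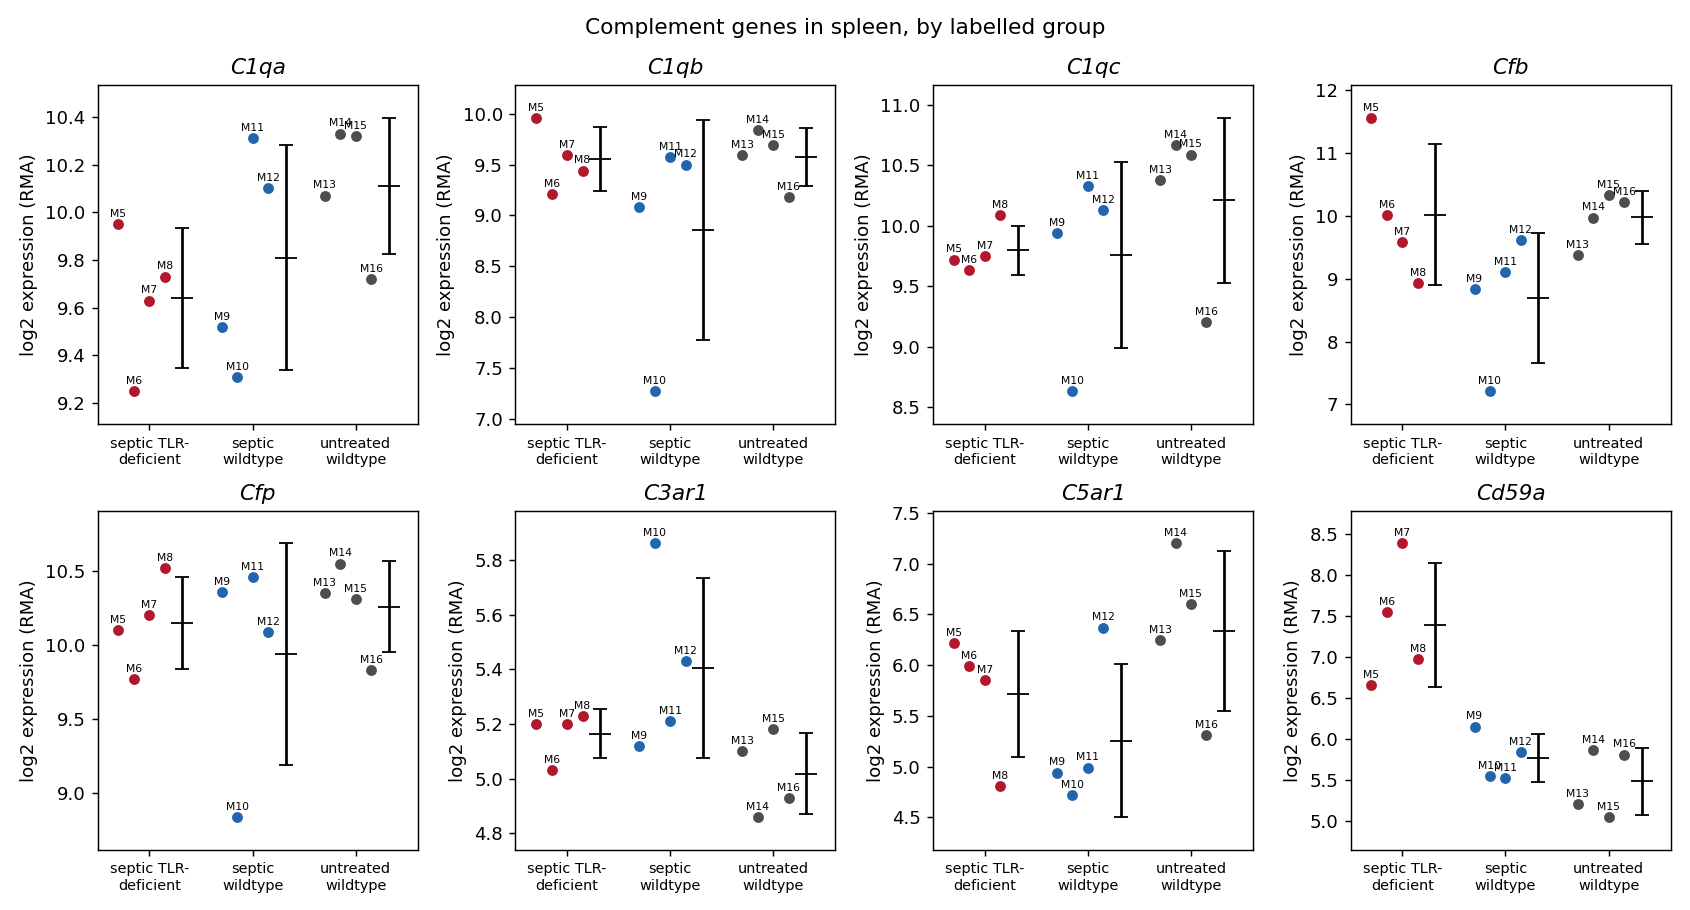
Log2 expression of the 8 measured complement genes (vertical axes, each with its own range) on every array, by labelled group, with the title number beside each point. Black bars give the group mean ± SD (n = 4), and Cd59a is the gene whose septic TLR-deficient arrays (6.66 to 8.38) lie above all others (5.05 to 6.15).

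Cd59a encodes a lipid-anchored surface protein that stops the last step of membrane attack complex assembly. Its log2 values were 6.66, 7.54, 8.38 and 6.97 in septic TLR-deficient spleens, against 6.15, 5.55, 5.52 and 5.84 in septic wildtype spleens and 5.21, 5.86, 5.05 and 5.81 in untreated spleens. All 4 septic TLR-deficient arrays were high, replicate 3 the highest, and both wildtype groups overlapped each other. The wildtype values, at 5.05 to 6.15, lay around the array medians of 5.22 to 5.54. Without detection calls, whether they lie above background is not known. The mean was 7.39 ± 0.76 in septic TLR-deficient and 5.76 ± 0.29 in septic wildtype spleens (SD, n = 4 each), a difference of 1.62 on the log2 scale (SE 0.34, limma adjusted p = 0.590). Against untreated spleens, at 5.48 ± 0.41 (SD, n = 4), the difference was 1.90 (SE 0.34, limma adjusted p = 1). Between septic and untreated wildtype spleens it was 0.28 (SE 0.34, limma adjusted p = 0.592), with 0.15 without septic wildtype replicate 1 and 0.14 without untreated replicate 3. Groups lay apart for 3.8% of all genes when septic TLR-deficient spleens were set against septic wildtype (2.05% with all values higher) and for 3.4% when set against untreated spleens (2.4% with all values higher). In 40 of 19938 genes (0.201%) the septic TLR-deficient arrays lay above all 8 others, and in 0.0652% below them. Of the 40, 0 had a larger gap between the 2 sets' means than Cd59a. That count was made after its values were seen.

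Cd59a was also the member that kept to the labels where the blocks of titles did not. Within M8 to M11 it stood at 6.97 on M8, labelled TLR-deficient, and at 5.52 to 6.15 on the 3 septic wildtype arrays. Within M5 to M7 with M16 it stood at 6.66 to 8.38 on the TLR-deficient arrays and at 5.81 on M16, labelled untreated. The difference between septic groups was 1.55 without septic wildtype replicate 2 and ranged from 1.29 (without septic TLR-deficient replicate 3) to 1.87 when each array was left out. Among the 8 arrays low in Y-linked transcripts the means were 7.39 in septic TLR-deficient (n = 4) and 5.74 in septic wildtype spleens (n = 3), and with those transcripts entered in the fit the difference was 1.56. Erythroid markers were measured for 3 of 6 listed genes, and their differences between the septic groups were 0.33 for Epor (SE 0.42), 0.04 for Klf1 (SE 0.40) and 0.90 for Slc4a1 (SE 0.59). The log2 of their summed level was 9.96 to 10.97 in septic TLR-deficient, 7.97 to 10.66 in septic wildtype and 8.40 to 9.94 in untreated spleens. Slc4a1, with group means of 9.05 to 10.19 against 5.97 to 7.02 for Epor and Klf1, weighs most in this sum. M10, which stands apart across genes, and M12 were at 10.66 and 10.50 for the sum and at 5.55 and 5.84 for Cd59a. M5 and M8 were at 10.06 and 9.96 for the sum and at 6.66 and 6.97 for Cd59a. M6 and M7 were the highest arrays for both, at 10.88 and 10.97 for the sum and at 7.54 and 8.38 for Cd59a. The part of erythroid cells in the Cd59a difference was not tested. Cd59b, its neighbour on chromosome 2, had 3.35, 3.76, 4.32 and 4.30 in septic TLR-deficient spleens, against 3.44, 5.30, 3.53 and 3.76 in septic wildtype spleens and 3.17 to 3.66 in untreated spleens, so it did not separate the labels.

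The window from 250 bases before to 50 after the annotated start of Cd59a is shown because Cd59a alone separated a label, and those of C1qb and C1qc because these neighbouring genes encode chains of 1 protein. The sequences are RefSeq's, read 5′ to 3′ on the gene's strand of build GRCm38.p6. The table held such a window for 7 of the 9 genes, and those of C1qa and Cfb were not used here. Capitals mark every match, on either strand, to 6 motifs: GAGGAA (PU.1, a factor of myeloid cells), TTGCNNAA (C/EBP), TTCNNNGAA (GAS, bound by STAT factors), NF-kappaB (GGG and CC with any 5 bases between), IRF (a pair of GAAA with any 2 bases between) and AGATAA (bound by GATA factors). Overlapping matches run together.
Cd59a (chr2:104095551-104095850, plus strand): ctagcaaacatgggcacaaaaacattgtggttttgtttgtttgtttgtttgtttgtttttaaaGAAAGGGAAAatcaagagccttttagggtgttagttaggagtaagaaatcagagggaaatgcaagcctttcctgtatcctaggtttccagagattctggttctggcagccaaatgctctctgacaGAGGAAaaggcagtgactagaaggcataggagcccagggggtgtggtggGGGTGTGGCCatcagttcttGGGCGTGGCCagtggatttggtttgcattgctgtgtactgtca
C1qb (chr4:136886151-136886450, minus strand): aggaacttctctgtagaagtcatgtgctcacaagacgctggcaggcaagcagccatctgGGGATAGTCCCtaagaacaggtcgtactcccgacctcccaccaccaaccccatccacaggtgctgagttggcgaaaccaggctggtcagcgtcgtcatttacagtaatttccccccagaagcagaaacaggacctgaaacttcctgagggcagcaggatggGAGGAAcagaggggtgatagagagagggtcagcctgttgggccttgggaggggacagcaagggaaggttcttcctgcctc
C1qc (chr4:136892865-136893164, minus strand): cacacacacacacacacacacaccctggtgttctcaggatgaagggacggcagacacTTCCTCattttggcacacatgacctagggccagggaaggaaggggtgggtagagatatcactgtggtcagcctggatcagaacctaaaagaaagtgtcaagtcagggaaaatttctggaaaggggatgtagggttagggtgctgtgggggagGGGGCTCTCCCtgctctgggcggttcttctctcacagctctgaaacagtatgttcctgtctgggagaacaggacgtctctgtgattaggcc
The Cd59a window held the IRF letters with their first base at -187, the PU.1 letters at -62 and NF-kappaB letters at -13 and 8, counted from the start site as 1 with no 0. C1qb held PU.1 letters at -30 and C1qc at -193, and each held a pair of NF-kappaB matches overlapping by all but 1 base. Of 32851 windows of this length in the table, 28.3% held the PU.1 letters, 50.8% the NF-kappaB letters, 11.2% the GATA letters, 10.8% the C/EBP letters, 8.3% the GAS letters and 3.44% the IRF letters. The C5ar1 window held none of the 6. A match of letters describes the sequence and not a bound site.

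C1qa, C1qb and C1qc encode the chains from which each C1q molecule is assembled, and the genes lie next to each other on chromosome 4. C1qa had log2 values of 9.95, 9.25, 9.63 and 9.73 in septic TLR-deficient spleens, 9.52, 9.31, 10.31 and 10.10 in septic wildtype spleens and 10.07, 10.33, 10.32 and 9.72 in untreated spleens. The groups overlapped, with M11 to M15 holding the 5 highest values whatever their label. Its difference was -0.17 (SE 0.25) between the septic groups, -0.34 without septic wildtype replicate 2 and -0.0035 without septic wildtype replicate 3. It was -0.30 (SE 0.25; -0.13 without M10 and -0.47 without M11) between septic and untreated wildtype spleens and -0.47 (SE 0.25) between septic TLR-deficient and untreated wildtype spleens.

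C1qb had log2 values of 9.96, 9.21, 9.59 and 9.44 in septic TLR-deficient spleens, 9.08, 7.27, 9.57 and 9.50 in septic wildtype spleens and 9.59, 9.84, 9.69 and 9.18 in untreated spleens. Only M10 was far from the rest. Its difference of 0.70 (SE 0.42) between the septic groups was 0.17 without M10, and that of -0.72 (SE 0.42) between septic and untreated wildtype spleens was -0.19 without it. Between septic TLR-deficient and untreated spleens C1qb differed by -0.02 (SE 0.42), a sign that turned in several alternatives.

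C1qc had 9.72, 9.63, 9.75 and 10.09 in septic TLR-deficient spleens, 9.94, 8.63, 10.33 and 10.13 in septic wildtype spleens and 10.38, 10.67, 10.59 and 9.20 in untreated spleens, all as log2 values. The 3 highest were M13 to M15, and M10 and M16 were the lowest. The differences were 0.04 (SE 0.38; -0.33 without M10) between the septic groups, -0.45 (SE 0.38; -0.08 without M10 and -0.79 without M16) between septic and untreated wildtype spleens and -0.41 (SE 0.38; -0.26 without M14 and -0.75 without M16) between septic TLR-deficient and untreated spleens. The smallest limma adjusted p of the 3 chains was 0.439, for C1qb between septic and untreated wildtype spleens.

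Over all 12 arrays the chains were no nearer to each other than to properdin. After each gene's mean over 12 arrays was subtracted, the log2 values of C1qa and C1qb differed by 0.32 per array on average, those of C1qa and C1qc by 0.29 and those of C1qb and C1qc by 0.34. Without M10 these were 0.22, 0.23 and 0.32. Properdin lay 0.28 from C1qa, 0.28 from C1qb and 0.23 from C1qc (0.26, 0.21 and 0.24 without M10), and C2 lay 0.29 from C1qb, while Cd59a was 0.93 to 1.03 from the chains. The genes nearest to C1qb by this measure, among 5909 with an SD of at least 0.5 over the arrays, were Clptm1 (0.137), St14 (0.146) and Crtap (0.154). Those nearest to C1qc were Spint2 (0.114), Fxyd5 (0.117) and Scamp4 (0.121). For scale, C1qb and C1qc lay on average 0.43 and 0.45 from their own means.

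Macrophages are the main source of C1q in spleen, and their markers were measured for 11 of 11 genes. The log2 of their summed level was 12.61 to 13.42 in septic TLR-deficient, 11.57 to 13.42 in septic wildtype (13.03 to 13.42 without M10) and 13.07 to 13.35 in untreated spleens. Over the title blocks it was 12.61 to 13.09 on M5 to M7 with M16, 13.30 to 13.42 on M8 to M11 without M10 and 13.03 to 13.35 on M12 to M15. The 11 genes did not move together. In that order of blocks Marco was at 10.46 to 11.65, 9.05 to 9.39 and 9.05 to 9.36. Slc40a1 was at 7.73 to 9.21, 11.51 to 11.69 and 10.67 to 10.93, and Adgre1 at 7.41 to 8.99, 8.66 to 9.20 and 5.46 to 6.02. C1qc was at 9.20 to 9.75 on M5 to M7 with M16, 9.94 to 10.33 on M8 to M11 without M10 and 10.13 to 10.67 on M12 to M15. C1qb did not order the blocks so, at 9.18 to 9.96, 9.08 to 9.57 and 9.50 to 9.84 on the same arrays. The part of macrophage number in the C1q values was not tested.

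**Figure D2:**
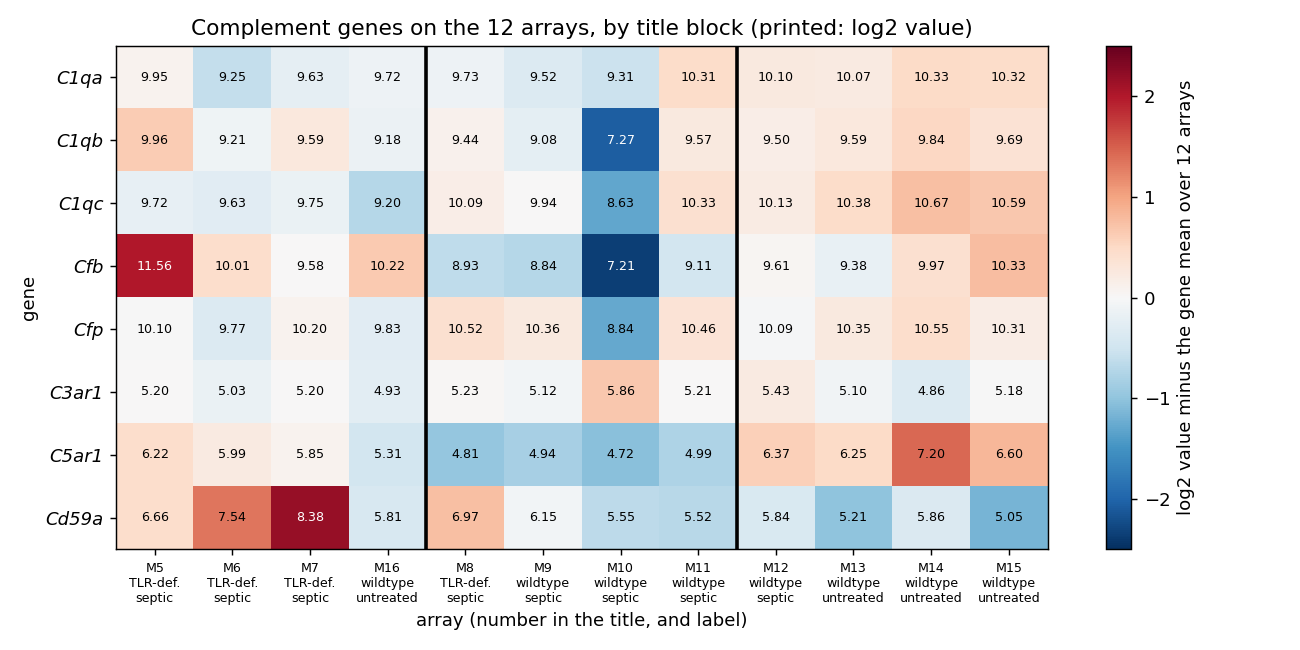
Log2 values (printed) of the 8 complement genes on the 12 arrays, ordered by title block (black lines), with colour for the distance of each value from that gene's 12-array mean. M10 is low for C1qb, C1qc, Cfb and Cfp, C5ar1 is low on M8 to M11 and high on M12 to M15, and Cd59a is high on the 4 TLR-deficient arrays, M5 to M8.

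Factor B supplies the protease that cleaves C3 in the alternative pathway and is made by many tissues during inflammation. Cfb had log2 values of 11.56, 10.01, 9.58 and 8.93 in septic TLR-deficient spleens, 8.84, 7.21, 9.11 and 9.61 in septic wildtype spleens and 9.38, 9.97, 10.33 and 10.22 in untreated spleens. M5 was the highest and M10 the lowest, and every pair of groups overlapped. The means were 10.02 ± 1.12 in septic TLR-deficient, 8.69 ± 1.04 in septic wildtype and 9.98 ± 0.43 in untreated spleens (SD, n = 4 each). The difference was 1.33 (SE 0.55, limma adjusted p = 0.590) between the septic groups, and 0.82 without septic TLR-deficient replicate 1 or 0.83 without septic wildtype replicate 2. Between septic and untreated wildtype spleens it was -1.28 (SE 0.55, limma adjusted p = 0.439), and -0.79 without M10. Between septic TLR-deficient and untreated spleens it was 0.05 (SE 0.55), and -0.47 without septic TLR-deficient replicate 1.

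Over title blocks Cfb was lowest on M8 to M11, at 7.21 to 9.11, and lay between 9.38 and 10.33 on M12 to M15 with M12 at 9.61, and between 9.58 and 11.56 on M5 to M7 with M16. The M8 to M11 values thus lay below the other 8, whatever the label. The genes nearest to Cfb in pattern were Slc15a3, a peptide transporter of lysosomes, at a mean centred difference of 0.211 per array, Glipr2 at 0.220 and the adhesion molecule Icam1 at 0.222, where Cfb itself lay 0.72 from its mean on average. C2, the classical pathway counterpart of factor B and its direct neighbour on chromosome 17, was further off at 0.49. C2 had log2 values of 6.25 to 7.65 in septic TLR-deficient, 5.49 to 7.06 in septic wildtype and 6.91 to 7.54 in untreated spleens. It was highest on M5 and lowest on M10, as Cfb was.

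Properdin, which stabilises the alternative pathway convertase and is stored in neutrophils and other leukocytes, varied least among the bright members once M10 was set aside. Cfp had log2 values of 10.10, 9.77, 10.20 and 10.52 in septic TLR-deficient spleens, 10.36, 8.84, 10.46 and 10.09 in septic wildtype spleens and 10.35, 10.55, 10.31 and 9.83 in untreated spleens. Its SD over the arrays was 0.47 with M10 and 0.26 without. The differences were 0.21 (SE 0.32; -0.16 without M10), -0.32 (SE 0.32; 0.04 without M10) and -0.11 (SE 0.32) for septic TLR-deficient against septic wildtype, septic against untreated wildtype and septic TLR-deficient against untreated wildtype spleens. The SDs were 0.31, 0.75 and 0.31 in septic TLR-deficient, septic wildtype (M10 included) and untreated spleens.

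C5ar1 is the receptor by which neutrophils, monocytes and macrophages sense C5a. Its log2 values were 6.22, 5.99, 5.85 and 4.81 in septic TLR-deficient spleens, 4.94, 4.72, 4.99 and 6.37 in septic wildtype spleens and 6.25, 7.20, 6.60 and 5.31 in untreated spleens. In each label the fourth replicate stood away from the first 3, and the groups overlapped. The means were 5.72 ± 0.62, 5.25 ± 0.76 and 6.34 ± 0.79 (SD, n = 4 each) in septic TLR-deficient, septic wildtype and untreated spleens. The difference was 0.46 (SE 0.45, limma adjusted p = 0.619) between the septic groups, 0.84 without septic wildtype replicate 4 and 0.28 without septic wildtype replicate 2. It was 0.30 without M5 and 0.77 without M8. It was -1.09 (SE 0.45, limma adjusted p = 0.439) between septic and untreated wildtype spleens and -0.50 with Y-linked transcripts entered in the fit. It was -0.62 (SE 0.45) between septic TLR-deficient and untreated spleens, -0.32 without M8, -0.34 without M14, -0.97 without M16 and 0.37 with those transcripts entered.

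The blocks of titles did not overlap for C5ar1. It was at 4.72 to 4.99 on M8 to M11, at 5.31 to 6.22 on M5 to M7 with M16 and at 6.25 to 7.20 on M12 to M15, the 4 arrays high in Y-linked transcripts. The values on M8 to M11 were under the array medians of 5.22 to 5.54. Without detection calls, whether they lie above background is not known. Neutrophil markers, measured for 10 of 10 genes, had a log2 summed level of 9.94 to 10.70, 9.59 to 11.39 and 11.34 to 12.37 on the same blocks. Monocyte markers, measured for 3 of 4 genes, had 7.89 to 8.66, 10.15 to 11.39 and 9.32 to 9.72. These 3 did not move together. In the same order of blocks Cd14 was at 5.71 to 6.75, 9.65 to 11.26 and 6.58 to 8.41. Ccr2 was at 5.78 to 7.43, 4.57 to 5.03 and 6.61 to 7.19, and Fcgr1 at 6.38 to 7.35, 7.13 to 8.24 and 7.67 to 9.16. Among the 10 neutrophil markers, Ly6g, which defines mouse neutrophils, stood at 7.15 on M12 and 6.17, 7.83 and 7.44 on M13 to M15. It was at 4.56 to 5.51 on the other arrays. Not all 10 followed the blocks: Ngp was highest on M7, at 9.62, and was 6.91 on M13, and Ltf was highest on M11, at 7.68, and was 5.49 to 6.62 on M12 to M15. By label the neutrophil level overlapped, at 10.32 to 11.39 in septic TLR-deficient, 9.94 to 12.37 in septic wildtype and 9.59 to 12.33 in untreated spleens. The part of neutrophil and monocyte number in the C5ar1 values was not tested. Grina (0.260), Msrb1 (0.294) and Csf2rb, a shared subunit of cytokine receptors of myeloid cells (0.304), were nearest to C5ar1 in mean centred difference, against 0.68 for C5ar1 from its own mean. For Cd59a the nearest genes, the small nucleolar RNA Rnu3a (0.425), the histone gene H4c3 (0.442) and the vault RNA Vaultrc5 (0.443), were more distant, against 0.78 from its own mean.

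**Figure D3:**
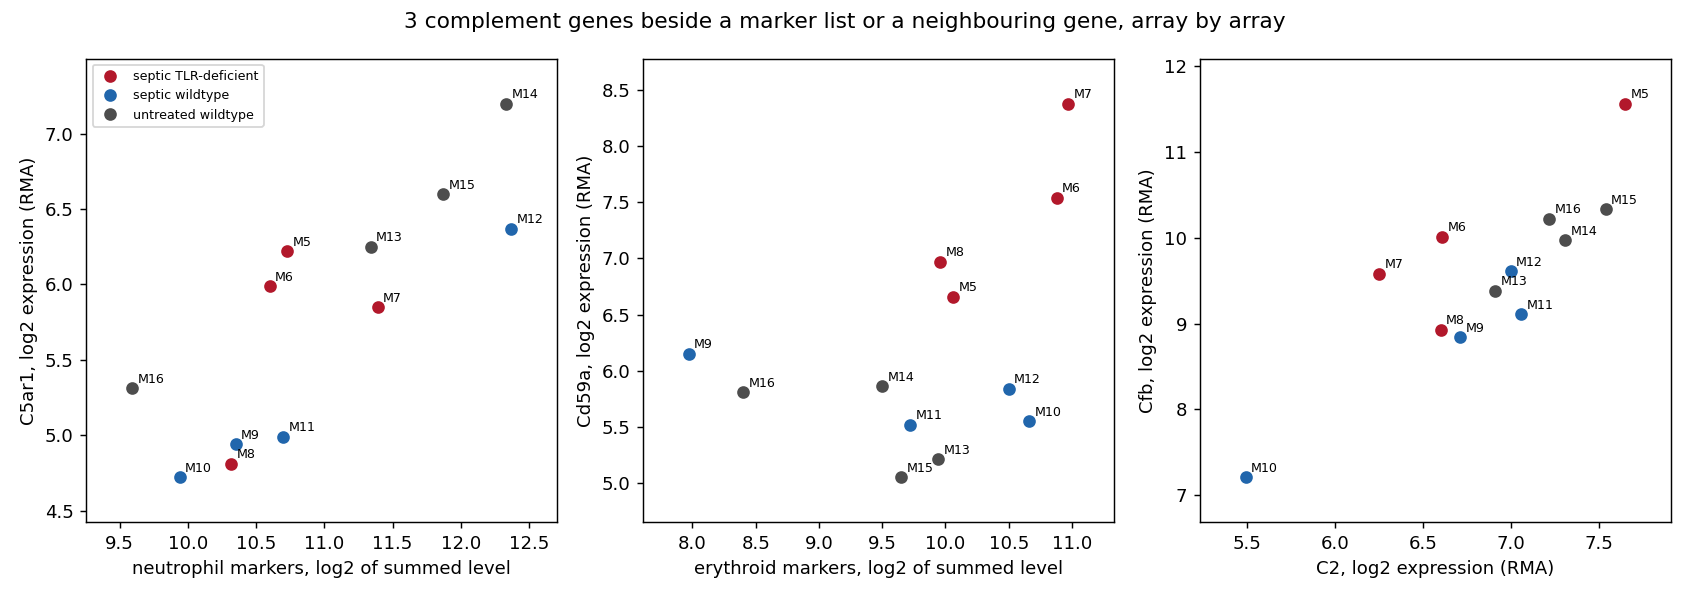
Log2 values of C5ar1, Cd59a and Cfb (vertical axes) on each array against the log2 summed level of neutrophil markers, that of erythroid markers and the log2 value of C2 (horizontal axes), coloured by label. C5ar1 and the neutrophil level are both high on M12 to M15, Cd59a is highest on M5 to M8 at erythroid levels of 9.96 to 10.97 that M10 and M12 also reach, and Cfb and C2 are both highest on M5 and lowest on M10. M6 and M7 are the highest arrays for Cd59a and for the erythroid level. Slc4a1 has the highest group means of the measured erythroid markers.

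C3ar1, the receptor for C3a on myeloid cells, was the flattest member. Its log2 values were 5.20, 5.03, 5.20 and 5.23 in septic TLR-deficient spleens, 5.12, 5.86, 5.21 and 5.43 in septic wildtype spleens and 5.10, 4.86, 5.18 and 4.93 in untreated spleens. M10 was the highest, and the other 11 arrays spanned 0.58. The differences were -0.24 (SE 0.19; -0.09 without M10), 0.39 (SE 0.19; 0.24 without M10) and 0.15 (SE 0.19) in the comparisons of septic TLR-deficient with septic wildtype, septic with untreated wildtype and septic TLR-deficient with untreated wildtype spleens. The smallest limma adjusted p was 0.439. The deposited values carry no detection call, so whether C3ar1 lies above background on these arrays is not known.

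**Figure D4:**
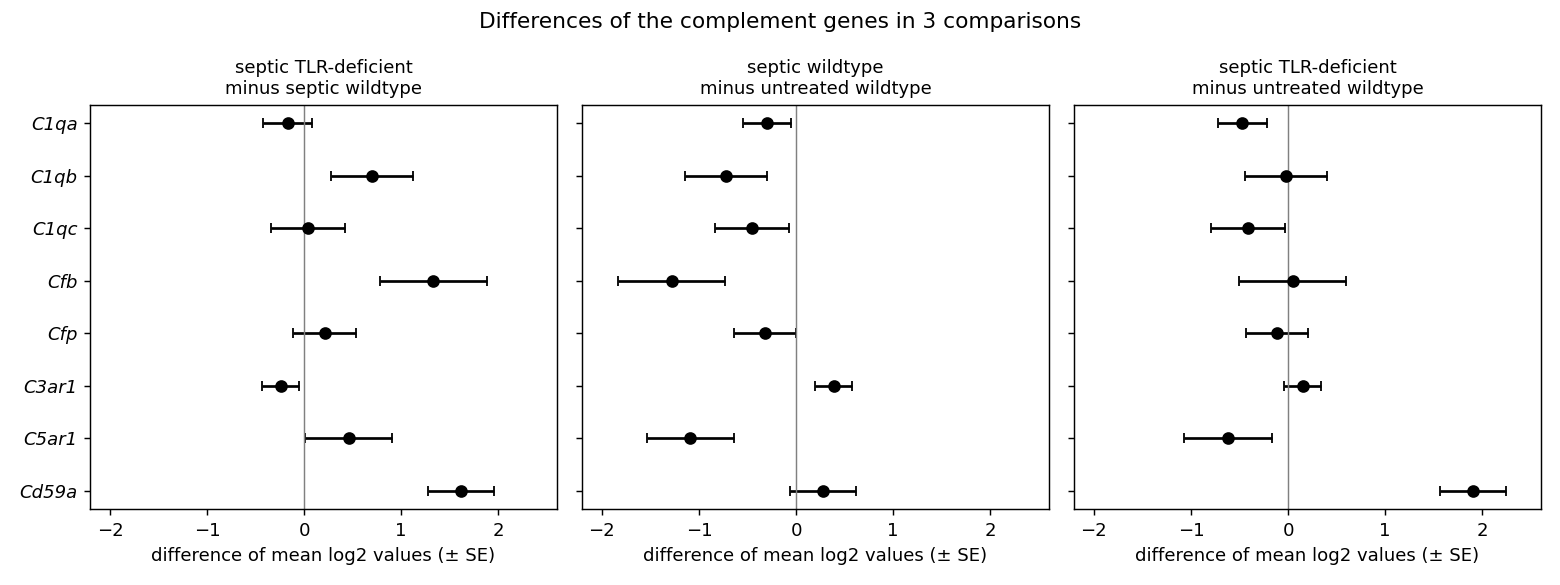
Difference of mean log2 values ± SE (horizontal axis) for the 8 complement genes in the 3 comparisons, each from 4 arrays against 4. Cd59a is highest in both comparisons of septic TLR-deficient spleens (1.62 and 1.90), and Cfb has 1.33 against septic wildtype but 0.05 against untreated spleens.

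The remaining complement genes were taken as a list of 45, of which 42 were measured, and 0 of 42 passed in any comparison in limma. Between septic TLR-deficient and septic wildtype spleens 14 had a higher and 28 a lower mean, with a median difference of -0.16 against -0.06 over all genes. Both medians were closer to 0 without M10, at -0.06 and -0.01. Of the list, 2 genes met an unadjusted p under 0.05 (2 lower), where 6.65% of all genes did. They were C5ar2, a second C5a receptor and the neighbour of C5ar1, and Vsig4, a receptor by which tissue macrophages take up C3-coated particles. C5ar2 had log2 values of 4.97, 5.38, 4.99 and 5.46 in septic TLR-deficient spleens, against 5.79, 6.01, 5.87 and 5.90 in septic wildtype spleens. These groups did not overlap, as for 1.76% of all genes with lower values, with a difference of -0.69 (SE 0.29, limma adjusted p = 0.590). Untreated spleens spanned both, at 4.95 to 6.68. Vsig4 differed by -0.56 (SE 0.26; -0.31 without M10), and Masp2, a protease of the lectin pathway, by -0.28 (SE 0.16; -0.16 without M10) with groups that did not overlap.

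Between septic and untreated wildtype spleens 25 of the 42 had a higher and 17 a lower mean, with a median of 0.12 against 0.07 over all genes (0.04 and 0.02 without M10). Terminal pathway genes (4 higher, 3 lower), receptors (3 higher, 4 lower) and inhibitors and regulators (10 higher, 4 lower) were mixed. All 6 measured classical pathway genes had lower means in septic wildtype spleens, with a median difference of -0.54 (-0.32 without M10, when 5 of 6 were lower). All 8 lectin pathway genes had higher means, with a median of 0.29 (0.18 without M10, when 6 of 8 were higher). Of these only Fcna was bright, with an untreated mean of 8.63 and a difference of 0.03. The others had untreated means of 3.42 to 5.17, under the array medians of 5.22 to 5.54. Without detection calls, whether they lie above background is not known. Serping1, the inhibitor of C1, had log2 values of 9.73, 7.32, 10.03 and 9.80 in septic wildtype spleens, against 10.18, 10.20, 10.31 and 10.53 in untreated spleens, a difference of -1.09 (SE 0.47; -0.45 without M10, limma adjusted p = 0.439). Every untreated value was above every septic wildtype value, as for 2.74% of all genes. Of the 42, 3 lay wholly higher, against 3.68% of all genes. At an unadjusted p under 0.05 stood 4 of the 42, against 8.81% of all genes: Serping1 and Cd93 with lower and Mbl2 and Fcnb with higher means. Cd93, a surface protein of endothelium and myeloid cells once taken for a C1q receptor, differed by -0.95 (SE 0.33; -0.66 without M10) and also did not overlap. Mbl2, a mannose-binding lectin made by the liver, differed by 0.79 (SE 0.36) and the carboxypeptidase subunit Cpn2, which did not meet that p, by 0.58 (SE 0.30), and without M10 these were 0.33 and 0.19. Fcnb, named here for the count, differed by 0.48 (SE 0.20, and 0.27 without M10). Cpn2 had means of 3.98 in septic and 3.40 in untreated wildtype spleens, also under the array medians. Hepatocyte markers, measured for 7 of 8 genes, had a log2 summed level of 7.12 to 8.24 in septic wildtype spleens (7.12 to 7.87 without M10) and 7.09 to 7.15 in untreated spleens, with Alb at 6.03 on M9 and at 3.47 to 4.80 elsewhere. Their part in these differences was not tested.

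Between septic TLR-deficient and untreated wildtype spleens 19 of the 42 had a higher and 23 a lower mean, with a median of -0.01 against 0.01 over all genes. At an unadjusted p under 0.05 stood 1 gene, against 1.88% of all genes. This was C6, a component of the membrane attack complex. C6 had log2 values of 5.61, 5.54, 6.43 and 7.33 in septic TLR-deficient spleens, against 7.75, 7.56, 7.32 and 6.44 in untreated spleens, a difference of -1.04 (SE 0.44, limma adjusted p = 1). The low untreated value was M16 and the high TLR-deficient value M8, so the labels overlapped. Clu (clusterin), which binds terminal complement proteins, was lower in all 4 septic TLR-deficient arrays at 10.06 to 10.52, against 10.60 to 10.74 in untreated spleens, a difference of -0.40 (SE 0.32). Fcnb, a ficolin of neutrophils and monocytes, was higher in all 4, at 5.17 to 5.52 against 4.95 to 5.15, a difference of 0.24 (SE 0.20). Groups lay apart in this way for 0.998% of all genes with lower and 2.4% with higher values in septic TLR-deficient spleens. Fcnb lay near the array medians of 5.22 to 5.54, so without detection calls whether it lies above background is not known.

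**Figure D5:**
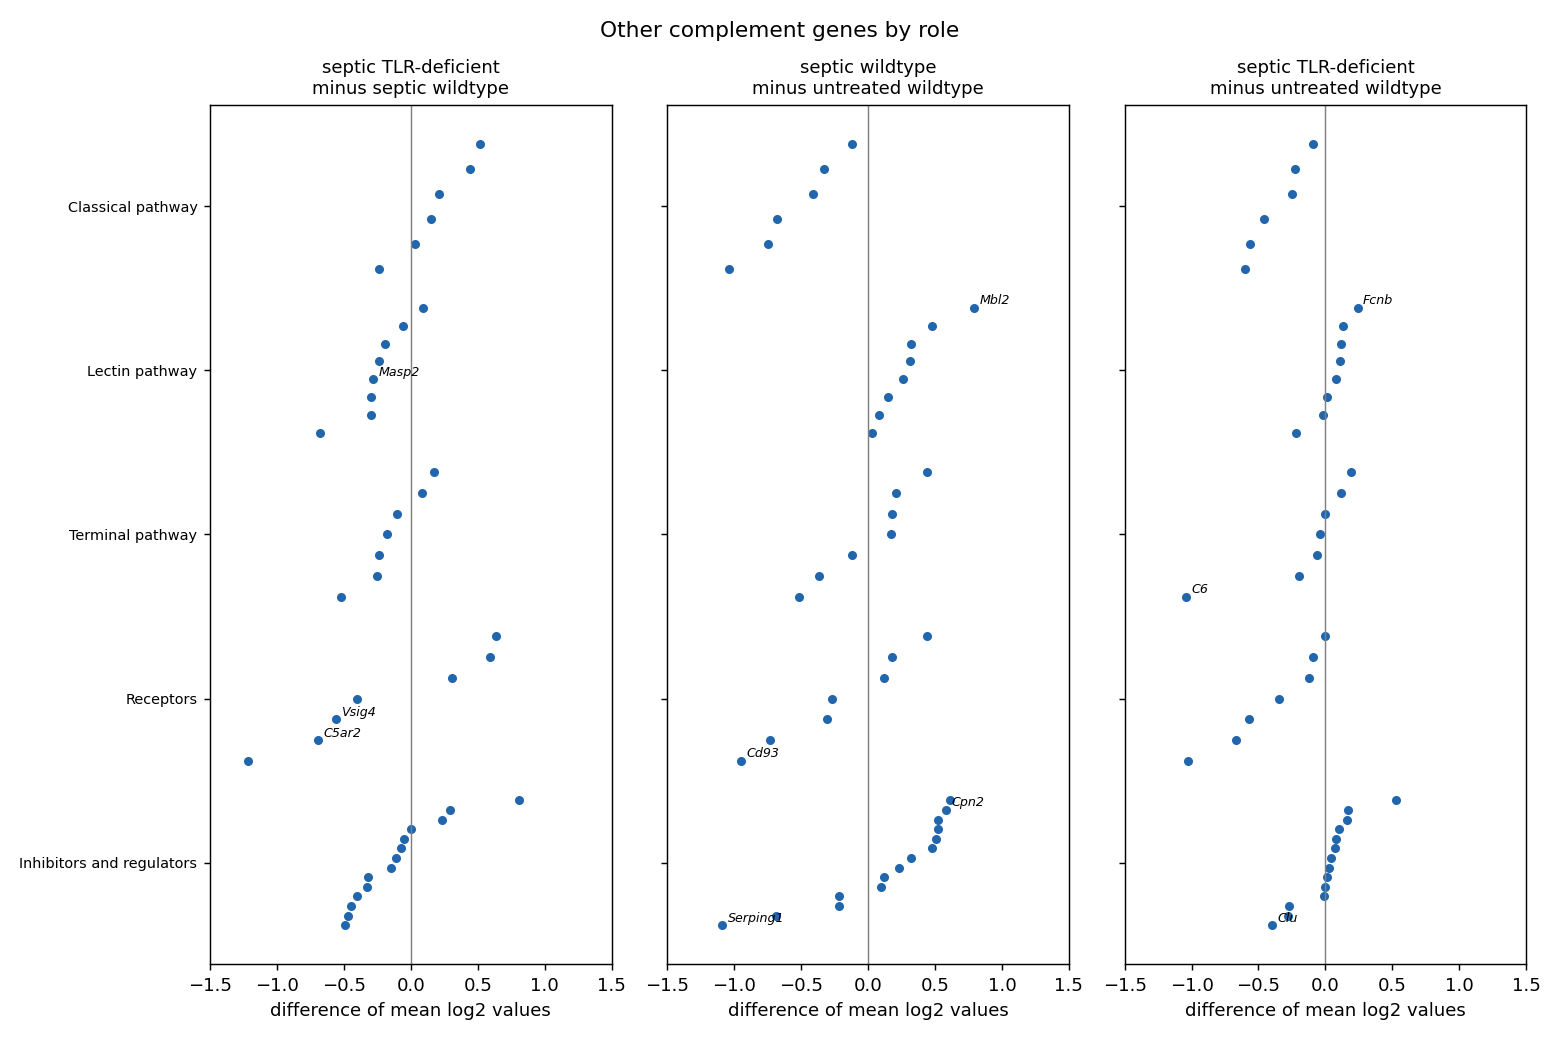
Difference of mean log2 values (horizontal axis) for the 42 other measured complement genes, 1 point each, arranged by role in the 3 comparisons, with named genes labelled. All 6 classical pathway points lie left of 0 and all 8 lectin pathway points right of it for septic against untreated wildtype spleens. Without M10, 5 of 6 and 6 of 8 kept that side. All lectin pathway genes but Fcna had untreated means of 3.42 to 5.17, under the array medians of 5.22 to 5.54.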

How the data were processed

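Total RNA from mouse spleen was labelled with Affymetrix whole-transcript kits, per the labels. The authors deposited log2 values, 1 per probe set and array, made by RMA in Affymetrix Expression Console per the submitters' processing notes; versions were not given in the sources used here. RMA makes the arrays' distributions alike, which limits what can be read from an array that still stands apart. Values ran from 1.33 to 13.79, and array medians from 5.22 to 5.54. Precision is limited by how few arrays there are.

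Of 35557 probe sets, 21789 carried 1 symbol, 1621 several and 12147 none. The brightest probe set per gene left 19938 genes, and each measured complement gene had 1 probe set. Symbols were updated by gene identifier for 21698 probe sets. One mean per label was fitted over 12 arrays with limma 3.58.1 in R 4.3.3, two-sided, adjusted by Benjamini-Hochberg over all genes at 0.05, with SE from that fit, and was tested on simulated data. The labels call the replicates biological without saying how the animals were kept, so p-values measure the spread between these samples.

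The members, gene lists, title blocks and alternatives were chosen with earlier results of these data known. Genes named from the complement list were, per comparison, up to 4 with the largest differences among those with an unadjusted p under 0.05 or groups that did not overlap; likeness was the mean absolute difference of centred log2 values, with 3 genes named per member of SD at least 0.5. Marker levels are the log2 of summed unlogged values. Figures used matplotlib 3.10.9 in Python 3.11.15.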

Additional observations from a re-analysis of the deposited data

Results flagged for a closer look

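A test for 1 value far from the other 3 of its label by its gap over the group's range was applied to 54 sets of 4 arrays and marked 6; chance marks about 1 in 20. C3ar1 stood at 5.03 on septic TLR-deficient replicate 2, against 5.20 to 5.23 on the other 3, a small gap in a tight group. C5ar1 stood at 6.37 on septic wildtype replicate 4 (M12), against 4.72 to 4.99 on the other 3 septic wildtype arrays. Serping1 was high on septic TLR-deficient replicate 1, at 10.57 against 9.82 to 9.90. The remaining 3 were all septic wildtype replicate 2 (M10), the array that stands apart across genes: Serping1 at 7.32 against 9.73 to 10.03, Fcnb at 6.14 against 5.27 to 5.37 and Cpn2 at 5.14 against 3.53 to 3.67. All are log2 values.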

How the results depend on the processing

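Of 552 member differences recomputed under 23 alternative settings, 26 changed sign, and the Cd59a differences kept their sign throughout. A further quantile normalization gave C1qc -0.28 and Cfp -0.0824 between the septic groups, C1qa 0.0845 and Cfp 0.0674 between septic and untreated wildtype spleens, and C1qb 0.0745 between septic TLR-deficient and untreated spleens, where centring on array medians gave C1qb 0.0047. Array weights gave C1qc -0.29 and Cfp -0.21 between the septic groups. With Y-linked transcripts as a covariate, differences between septic TLR-deficient and untreated spleens were 0.27 for C1qb, 0.12 for C1qc, 0.020 for Cfp and 0.37 for C5ar1. Leaving out each array gave ranges across 0: between the septic groups -0.33 to 0.23 for C1qc and -0.16 to 0.38 for Cfp, between septic and untreated wildtype spleens -0.50 to 0.0432 for Cfp, and between septic TLR-deficient and untreated spleens -0.47 to 0.41 for Cfb, -0.16 to 0.0916 for C1qb and -0.26 to 0.0117 for Cfp. The cause was not tested.

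The count of genes called was 0 in each comparison, also whichever array was left out, with 1325, 1756 and 375 at an unadjusted p under 0.05 (septic TLR-deficient against septic wildtype, septic against untreated wildtype, septic TLR-deficient against untreated wildtype). Leaving out each array moved the unadjusted counts, and with them the shares of all genes given as background, over 606 (without M5) to 2201 (without M12), 793 (without M15) to 3193 (without M12) and 146 (without M7) to 1225 (without M10). Array weights called 1 gene between septic and untreated wildtype spleens. Using replicates 1 to 3 only drops arrays that stand apart from their label and so favours calls. It gave 141, 9 and 33 of 19938 genes in the same order, with 0 members. Leaving out septic wildtype replicate 2 as well gave 1002, 19 and 675 of 19938 genes, among them 3 member differences. C5ar1 was at 1.06 between the septic groups (limma adjusted p = 0.0429). Between septic TLR-deficient and untreated spleens C1qc was at -0.85 (limma adjusted p = 0.0164) and Cd59a at 2.15 (limma adjusted p = 0.0217). The arrays left out were chosen by their values, which favours calls here too, so these adjusted p-values are not support for a difference. In the same setting C1qc was -0.43 and Cfp -0.39 between the septic groups, and Cfp 0.007 between septic and untreated wildtype spleens.

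With the replicate number as a block, 0 genes were called, with 1006, 1338 and 308 at an unadjusted p under 0.05 in the same order. The numbers gave no sign of pairing. Correlations of deviations between same-numbered arrays ran from -0.54 to 0.14, 2 of 12 were over 0.1, and 0 arrays were closest to their own number. The deviations are from label means that include M8, M10, M12 and M16, so these correlations cannot exclude a pairing.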

Other observations

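Complement receptor 2 (Cr2), which B cells and follicular dendritic cells use to hold C3-coated antigen, was chosen after its values were seen. It had log2 values of 7.86, 7.13, 7.22 and 10.42 in septic TLR-deficient spleens, against 10.29, 7.37, 10.04 and 9.80 in septic wildtype spleens and 9.76, 9.64, 9.64 and 7.72 in untreated spleens. The low arrays were M5 to M7, M10 and M16, and the labels overlapped. The difference between the septic groups was -1.22 on the log2 scale (-1.88 without M10), which did not pass in limma. The log2 summed level of 5 measured B cell markers was 11.26 to 11.67 on M5 to M7 with M16, 11.22 to 12.79 on M8 to M11 (12.48 to 12.79 without M10) and 12.28 to 12.64 on M12 to M15. The part of B cell number in the Cr2 values was not tested.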
